A study of Mus musculus with 2 samples.

Results

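The genes described here are those of bone morphogenetic protein (BMP) and transforming growth factor-β (TGF-β) signaling in mouse intestinal organoids (mIOs) with and without dextran sulfate sodium (DSS). They were chosen by name, as 41 ligands, receptors, SMAD proteins, targets and antagonists, and 38 of them have a row among the 19294 genes of the count table. The 3 others, Tgfb3, Smad9 and Nog, were not analysed here, and none of the table's rows carries their gene identifiers. The mIOs were grown from crypts of the intestine of Lgr5-EGFP-IRES-creERT2 animals, where the Lgr5 locus drives EGFP and an inducible Cre, so both cultures carried this allele. Both were kept in medium with EGF, Noggin and R-spondin and are labelled day 4. One culture was an untreated control and the other received DSS, a sulfated glucose polymer used to injure intestinal epithelium, for 4 days. The age and number of the mice and the DSS concentration of the sequenced culture are not given in the sources used here.

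Each condition was 1 poly(A) library, so the differences carry no replicate error, and neither tests nor p-values are given. Depth was 65493032 counts for the control and 59746968 for DSS. For each gene, DSS and control counts were compared as a log2 ratio after scaling with trimmed mean of M-values (TMM) factors, with an exact Clopper-Pearson 95% interval from the counts, which covers counting error only. Levels are given as CPM, which adjusts for library size after TMM. The tissue label names intestinal stem cells. The 7 epithelial markers summed to 5950 CPM in the control and 9234 CPM with DSS, and the 5 stem cell markers to 832 and 130 CPM. The epithelial markers did not move together. Krt8, Krt19 and Vil1 were at log2 ratios of 0.84, 1.15 and 1.25. Epcam, Cdh1 and Krt18 were at 0.03, -0.03 and 0.04, and Cdx2 was at -1.35. Of 13 mesenchymal markers, 5 had a row and summed to 1.47 and 2.29 CPM, while Col1a2, Col3a1, Des, Dcn, Lum, Thy1, Foxl1 and Myh11 had none. Of 5 endothelial markers, Pecam1 and Tek had rows and summed to 0.335 and 2.78 CPM. Of 8 immune markers, 4 had rows and summed to 12.3 and 23.4 CPM, mainly Itgam and Cd68, and Ptprc, the marker shared by leukocytes, had none. The part of such cells in the ratios below was not tested. In whole cultures, fewer cells of a type and less RNA per cell cannot be told apart.

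Ligands of this family bind a pair of type II receptors, which activate a pair of type I receptors. BMP receptors then phosphorylate SMAD1, SMAD5 and SMAD9, and TGF-β and activin receptors phosphorylate SMAD2 and SMAD3. Both kinds join SMAD4 and enter the nucleus, where ID genes are classical targets of the BMP arm and Tgfbi of the TGF-β arm. In the intestine, BMP signaling is known to be low at the crypt base, where antagonists such as Noggin act, and higher along the villus, where it limits stem cell renewal. Noggin is a component of the culture medium, and its own gene, Nog, is one of those without a row.

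The promoters of Id2, Id3, Id4 and the inhibitory Smad6, genes that the pathway is known to induce, were chosen with their log2 ratios known. These ran from -1.73 for Smad6 to 4.68 for Id4, with Id2 at -0.23 and Id3 at 0.09 between them. No promoter entry was found for Id1. The promoters span 250 bases before to 50 after the annotated start, are taken from RefSeq on GRCm38.p6 and are written 5′ to 3′ on the strand of the gene. The build of the authors' counts is not given, and genes were matched by gene identifier. Capitals mark GGCGCC, a GC-rich motif of SMAD1 and SMAD5, CAGAC or its reverse complement GTCTG, the core of the SMAD binding element, and GTCTAGAC, its palindromic form. Both strands were searched and none of the marked motifs overlap.
Id2, chr12:25096043-25096342, minus strand: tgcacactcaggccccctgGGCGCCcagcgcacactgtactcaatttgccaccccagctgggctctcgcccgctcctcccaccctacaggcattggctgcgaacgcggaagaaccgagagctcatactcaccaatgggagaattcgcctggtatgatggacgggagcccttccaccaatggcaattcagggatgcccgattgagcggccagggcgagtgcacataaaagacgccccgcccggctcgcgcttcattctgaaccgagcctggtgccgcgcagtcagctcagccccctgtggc
Id3, chr4:136143572-136143871, plus strand: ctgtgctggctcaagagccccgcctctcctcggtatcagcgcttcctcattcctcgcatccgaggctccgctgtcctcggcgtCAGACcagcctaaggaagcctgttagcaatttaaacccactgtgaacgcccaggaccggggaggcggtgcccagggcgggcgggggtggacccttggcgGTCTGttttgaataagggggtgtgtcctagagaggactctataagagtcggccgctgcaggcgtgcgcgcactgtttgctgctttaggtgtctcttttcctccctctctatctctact
Id4, chr13:48260866-48261165, plus strand: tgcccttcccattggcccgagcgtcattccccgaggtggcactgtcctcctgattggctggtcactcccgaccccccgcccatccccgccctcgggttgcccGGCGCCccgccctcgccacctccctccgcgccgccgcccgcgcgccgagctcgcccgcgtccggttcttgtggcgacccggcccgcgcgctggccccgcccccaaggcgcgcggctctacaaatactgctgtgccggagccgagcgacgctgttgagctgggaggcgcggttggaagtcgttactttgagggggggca
Smad6, chr9:64022010-64022309, minus strand: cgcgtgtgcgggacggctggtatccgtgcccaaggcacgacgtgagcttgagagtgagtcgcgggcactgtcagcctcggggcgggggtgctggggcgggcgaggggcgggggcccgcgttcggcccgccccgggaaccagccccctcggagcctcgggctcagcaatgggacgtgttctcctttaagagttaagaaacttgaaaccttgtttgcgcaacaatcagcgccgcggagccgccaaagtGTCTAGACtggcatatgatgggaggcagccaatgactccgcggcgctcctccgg

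The Id2 and Id4 windows each held 1 GGCGCC and no CAGAC, and the Id3 window held 2 matches to CAGAC or GTCTG and no GGCGCC. Smad6 held the palindrome GTCTAGAC, which is in 0.213% of 32851 windows of all genes. No other member window had it. RefSeq windows were found for 27 of the 38 members, 33 windows in all. GGCGCC was in 13 of these windows, or 39.4%, against 11.9% of all windows and 30.9% of the 9690 windows with a GC content of at least 60%. The median GC content was 66.3% over the member windows and 52.7% over all. CAGAC or GTCTG was in 42.4% of member windows, 49.6% of all windows and 44.5% of those with a GC content of at least 60%. These matches are letters in a window and not measured sites.

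Across the members, ligands and the proteins that release or store them had a larger median absolute log2 ratio between the libraries than receptors, SMAD proteins and their regulators. A minimum of 10 counts in either library was met by 37 members, of which 9 reached a log2 ratio of at least 1 and 4 a log2 ratio of at most -1. Over all 17235 genes with that depth, 19.3% reached the upper and 20.2% the lower line. Together, 13 members, or 35.1%, were past either line, against 39.5% of all genes. Scaled by total counts alone, the members were 8 and 5, and the shares over all genes 15.4% and 26.2%. The median log2 ratio was 0.11 over these members and -0.06 over all genes. Bmp4, Ltbp1 and Fst reached the minimum through the DSS library alone and Tgfb2 through the control alone, so these 4 had to differ to enter the count. Where both libraries had to meet it, 6 of 33 members were past the upper line and 3 past the lower, against 16.8% and 18.9% of all genes, so that the upper share was near that of all genes. The remaining member, Inhbb, had 6 and 2 counts. A stricter line of 2 was reached by 4 members, Bmp2, Ltbp1, Id4 and Fst, against 7.87% of all genes, and -2 by 2 members, Tgfb2 and Ltbp4, against 6.54% of all genes.

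**Figure D1:**
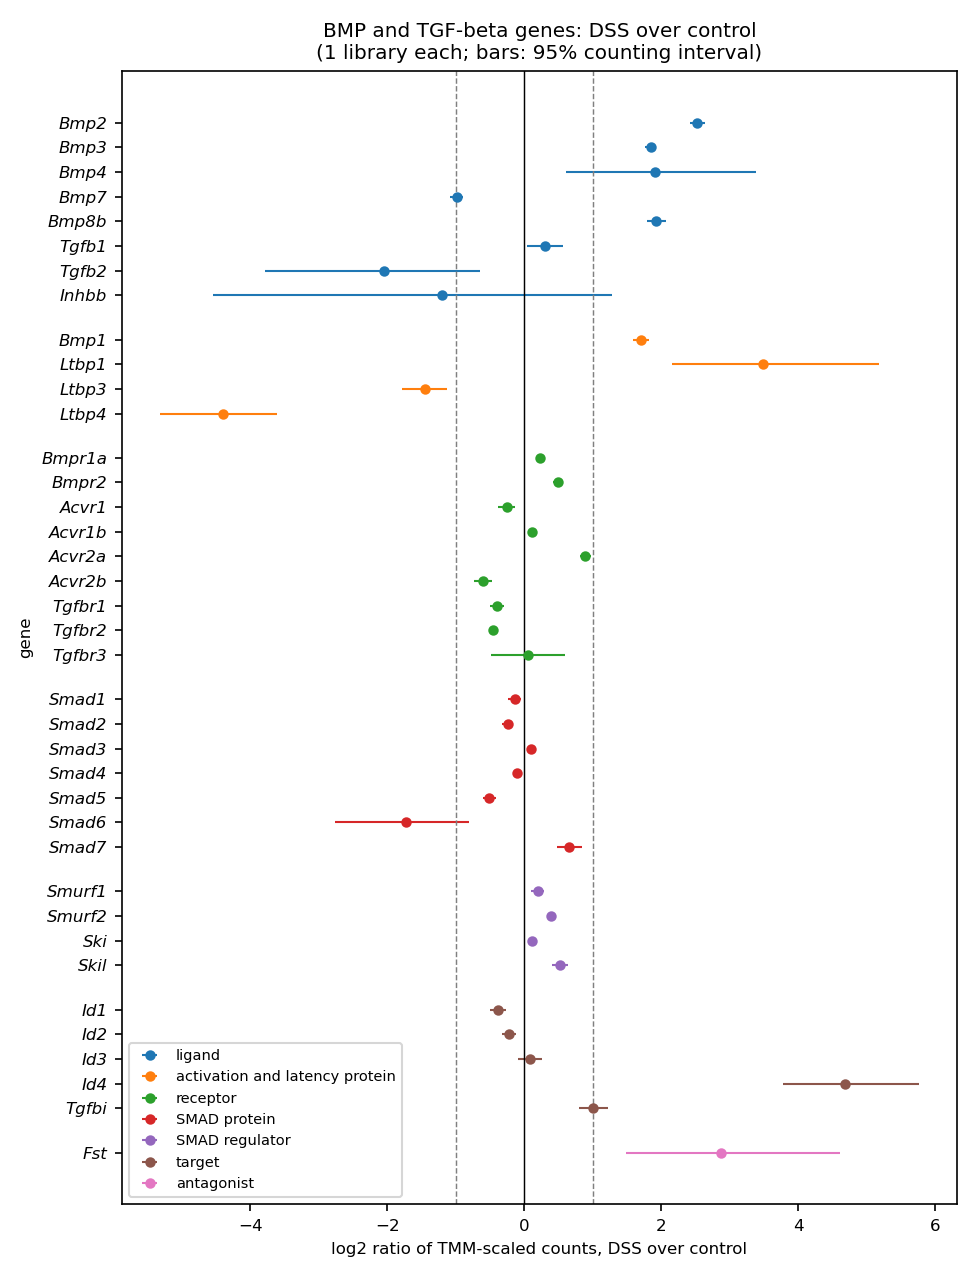
Log2 ratio of TMM-scaled counts (x axis, DSS over control) of the 38 members (y axis), coloured by class, with 95% counting intervals as bars and dashed lines at 1 and -1. Ligands and latency proteins lie on both sides of the lines, from -4.39 for Ltbp4 to 3.49 for Ltbp1, while the 9 receptors lie between -0.61 and 0.89.

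The split by role is visible in the classes. Where both libraries met the minimum, the ligands, activation and latency proteins and antagonists had 8 genes, of which 4 were at 1 or more, 2 at -1 or less and 2 between. The receptors, SMAD proteins and SMAD regulators had 20 genes, with 0 at 1 or more, 1 at -1 or less, which was Smad6, and 19 between. Past the upper and the lower line lay 50% and 25% of the first group, and 0% and 5% of the second. Among all genes that met the minimum in both libraries, the upper line was passed by 16.8% and the lower by 18.9%. The median absolute log2 ratio was 1.77 in the first of these groups, 0.33 in the second and 0.70 over all genes. Bmp4, Ltbp1, Fst and Tgfb2, which met it in 1 library only, all belong to the first group and are left out here. The classes were set by function, but their comparison was made with the values known, and no test was made.

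Bmp2, a BMP ligand that mature intestinal epithelial cells are known to express, had 828 control and 3646 DSS counts. Its log2 ratio was 2.53, a 5.76-fold higher level, with a counting interval from 2.42 to 2.64. Among all genes with at least 10 counts in either library, 95.1% had a lower ratio. Bmp3, an atypical member that antagonises other BMPs, had 1786 and 4904 counts and a log2 ratio of 1.85, from 1.77 to 1.92. Both were thus several-fold higher in the DSS library. Bmp8b had 590 and 1718 counts and a log2 ratio of 1.93, from 1.79 to 2.07. Its close paralog Bmp8a had 34 and 92 counts, and because reads can be placed on either copy, the sum of both is given, with a log2 ratio of 1.92, from 1.79 to 2.06. Exons of Bmp8b also overlap Gm17244 of GENCODE vM21, on the other strand, over 11.5% of their length. Bmp4, a ligand that mesenchymal cells are known to make in the intestine, was near the limit of detection with 7 and 20 counts. Its log2 ratio of 1.90 had an interval from 0.60 to 3.39.

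Bmp7, a ligand that forms dimers with other BMPs as well as with itself, was lower. It had 3156 control and 1217 DSS counts, and its log2 ratio of -0.99, from -1.08 to -0.89, was just short of the line. Scaled by total counts alone it was -1.24, past the line. The ratio of Bmp2 to Bmp7 counts, which needs no scaling between libraries, was 0.262 in the control and 2.996 with DSS. This is a log2 change of 3.51, with a counting interval from 3.37 to 3.66. The ratio of Bmp3 to Bmp7 went from 0.566 to 4.03, a log2 change of 2.83. These and the other pairs of genes compared below were chosen after their values were seen.

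Per kilobase of exon, which allows levels of different genes to be compared, Bmp7 was the highest BMP ligand in the control, at 12.0 CPM per kb. Bmp3 followed at 3.37, Bmp2 at 3.25, Bmp8b at 2.80 and Bmp4 at 0.047 CPM per kb. The places of Bmp2, Bmp3 and Bmp8b are close and depend on the exon lengths of the annotation. In the DSS library the order was Bmp2 at 18.8, Bmp3 at 12.1, Bmp8b at 10.7, Bmp7 at 6.07 and Bmp4 at 0.177 CPM per kb. The share of Bmp7 in the summed level of the 5 ligands was 55.9% in the control and 12.7% with DSS, and that of Bmp2 was 15.1% and 39.2%. Summed over these 5 genes, BMP ligand counts were 6367 and 11505, a log2 ratio of 1.24, from 1.20 to 1.29. Bmp3, which antagonises other BMPs, made up 28.1% of these counts in the control and 42.6% with DSS. The sum is thus not one of activating ligands alone.

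**Figure D2:**
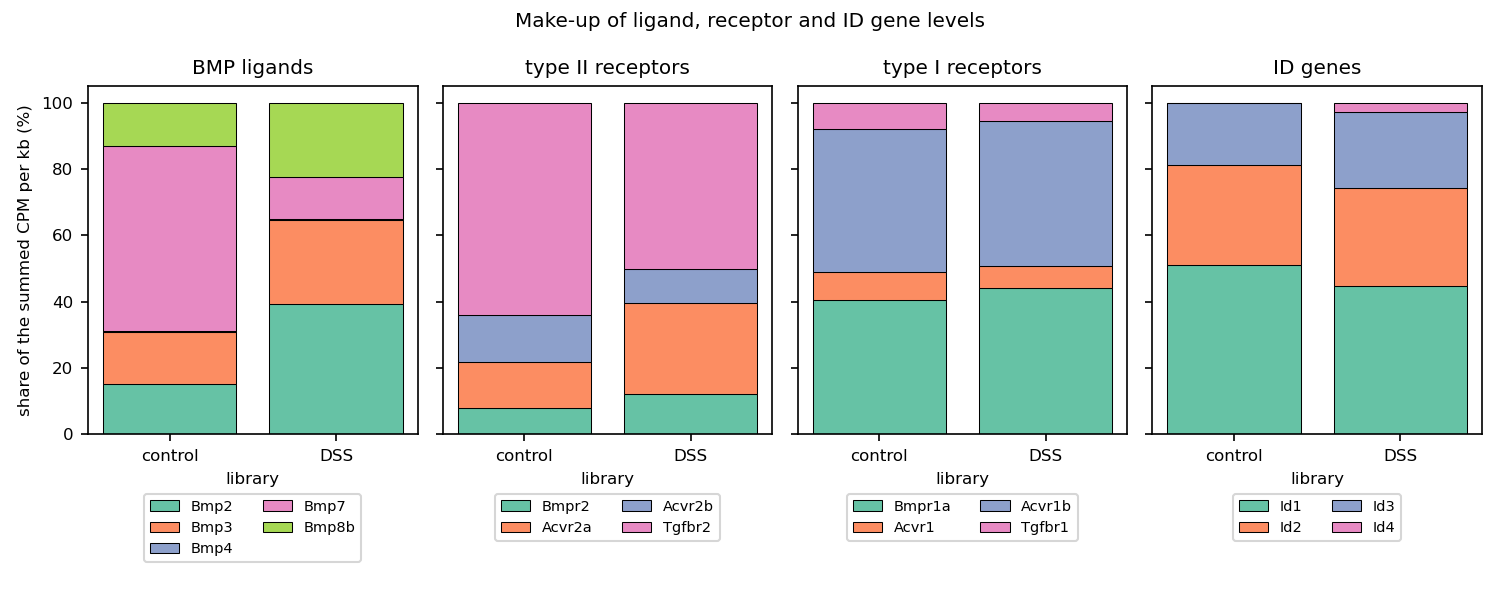
Share of each gene (stacked bars, y axis, percent) in the summed CPM per kb of its group in the control and DSS libraries (x axis), for 5 BMP ligands, 4 type II receptors, 4 type I receptors and 4 ID genes. Bmp7 takes 55.9% of the ligand level in the control and 12.7% with DSS, while the make-up of the type I receptors differs little.

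TGF-β and activin ligands were scarce in both libraries. Tgfb1, the main TGF-β isoform of many tissues, had 241 and 227 counts and a log2 ratio of 0.30, from 0.03 to 0.57. Tgfb2 had 27 control and 5 DSS counts, with a log2 ratio of -2.04 and a wide interval from -3.78 to -0.65. Inhbb, which encodes the activin B subunit, had 6 and 2 counts, and its interval from -4.54 to 1.29 held 0. Tgfb1 reached 1.55 CPM per kb in the control and 1.91 with DSS, below Bmp2, Bmp3, Bmp7 and Bmp8b in either library.

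Latent TGF-β binding proteins hold TGF-β in the extracellular matrix in an inactive form, and their genes diverged. Ltbp4 had 358 control and 13 DSS counts, a log2 ratio of -4.39, from -5.32 to -3.60. It was the lowest of the members, a 21.0-fold lower level. Ltbp3 also had 358 control and 100 DSS counts, with a log2 ratio of -1.45, from -1.79 to -1.13. Ltbp1 had 5 control and 43 DSS counts, a log2 ratio of 3.49 and an interval from 2.16 to 5.19. Together the 3 genes had 721 and 156 counts, a log2 ratio of -1.82, from -2.08 to -1.57. Ltbp1 was still rare, at 0.113 CPM per kb in the DSS library, where Ltbp3 was at 0.343 CPM per kb. Bmp1, despite its name, encodes a secreted metalloprotease that processes collagens and frees ligands from their antagonists. It had 845 and 2099 counts and a log2 ratio of 1.70, from 1.59 to 1.82.

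The antagonist Fst encodes follistatin, which binds activins and some BMPs. It had 5 control and 28 DSS counts, a log2 ratio of 2.87 and an interval from 1.48 to 4.60, at 0.155 CPM per kb in the DSS library.

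Tgfbr2, Acvr1b and Bmpr1a were among the highest members per length in the control, at 25.3, 24.9 and 23.4 CPM per kb, and none of the 9 receptors was past a log2 ratio of 1 or -1. Summed, they had 43359 control and 33425 DSS counts, a log2 ratio of 0.01 and an interval from -0.0075 to 0.034. With total counts, which lower every log2 ratio by the same amount, this sum was at -0.24. Among the type I receptors, Bmpr1a, the main BMP receptor of this class in the intestine, had 10637 and 9518 counts and a log2 ratio of 0.23, from 0.19 to 0.27. Acvr1b, a receptor for activins, had 7871 and 6535 counts and a log2 ratio of 0.12, from 0.07 to 0.17. Both turned negative with total counts, at -0.028 and -0.14. Tgfbr1 had 2126 and 1236 counts and a log2 ratio of -0.39, from -0.50 to -0.29, and Acvr1 had 1285 and 821 counts and -0.26, from -0.39 to -0.13.

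The type II receptors differed more among themselves. Tgfbr2, which binds TGF-β, was the member with the most counts, 14830 in the control and 8273 with DSS. Its log2 ratio was -0.45, from -0.49 to -0.41. The activin receptor Acvr2a had 2220 and 3153 counts and a log2 ratio of 0.89, from 0.82 to 0.97, whereas its paralog Acvr2b had 1433 and 719 counts and -0.61, from -0.74 to -0.48. The ratio of Acvr2a to Acvr2b counts was 1.55 in the control and 4.39 with DSS, a log2 change of 1.50 with an interval from 1.35 to 1.65 that needs no scaling. Exons of Acvr2a overlap those of Orc4 on the other strand over 7.84% of their length in GENCODE vM21, and whether the counting used strand is not given. Bmpr2 had 2889 and 3116 counts and a log2 ratio of 0.50, from 0.42 to 0.57. The share of Tgfbr2 in the summed level per kb of these 4 genes was 64.1% in the control and 50.3% with DSS, and that of Acvr2a was 13.8% and 27.6%. The coreceptor Tgfbr3 was rare, with 68 and 54 counts, and its interval from -0.49 to 0.59 held 0.

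SMAD transcripts of the signal-carrying proteins lay between log2 ratios of -0.51 for Smad5 and 0.10 for Smad3, and those of the inhibitory ones diverged. Smad4, whose protein is the shared partner of SMAD1, SMAD5, SMAD2 and SMAD3, had 7630 and 5410 counts and a log2 ratio of -0.11, from -0.16 to -0.06. Smad1 was at -0.14, Smad5 at -0.51, Smad2 at -0.24 and Smad3 at 0.10, with counting intervals no wider than from -0.61 to -0.41 for Smad5. The ratio of Smad3 was -0.15 with total counts, so its direction depends on the scaling. Smad5 was then at -0.77. The sum of Smad1 and Smad5, the BMP arm, was at -0.32, from -0.38 to -0.25, and that of Smad2 and Smad3, the TGF-β arm, at -0.04, from -0.10 to 0.012. Within each arm the proportions shifted slightly, by a log2 change of 0.37 for Smad1 over Smad5, from 0.24 to 0.51, and of 0.34 for Smad3 over Smad2, from 0.23 to 0.45.

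Smad6 and Smad7 encode inhibitory SMADs, which are themselves induced by the pathway and block the receptors. Smad6 had 52 control and 12 DSS counts, a log2 ratio of -1.73 and an interval from -2.77 to -0.80. Smad7 had 476 and 575 counts and a log2 ratio of 0.66, from 0.48 to 0.84. The 2 genes thus differed in opposite directions, and the ratio of Smad7 to Smad6 counts was 9.15 in the control and 47.9 with DSS, a log2 change of 2.39 with an interval from 1.44 to 3.44.

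The SMAD regulators were all slightly higher with TMM factors. Smurf1 and Smurf2 encode ubiquitin ligases that target SMADs and receptors for degradation. Smurf2 had 4425 and 4447 counts and a log2 ratio of 0.40, from 0.34 to 0.46, and Smurf1 was at 0.20, from 0.11 to 0.28. The corepressor genes Skil and Ski were at 0.52 and 0.11. With total counts Smurf1 was at -0.061 and Ski at -0.15, so that only Smurf2 and Skil were above 0 under each scaling tried.

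**Figure D3:**
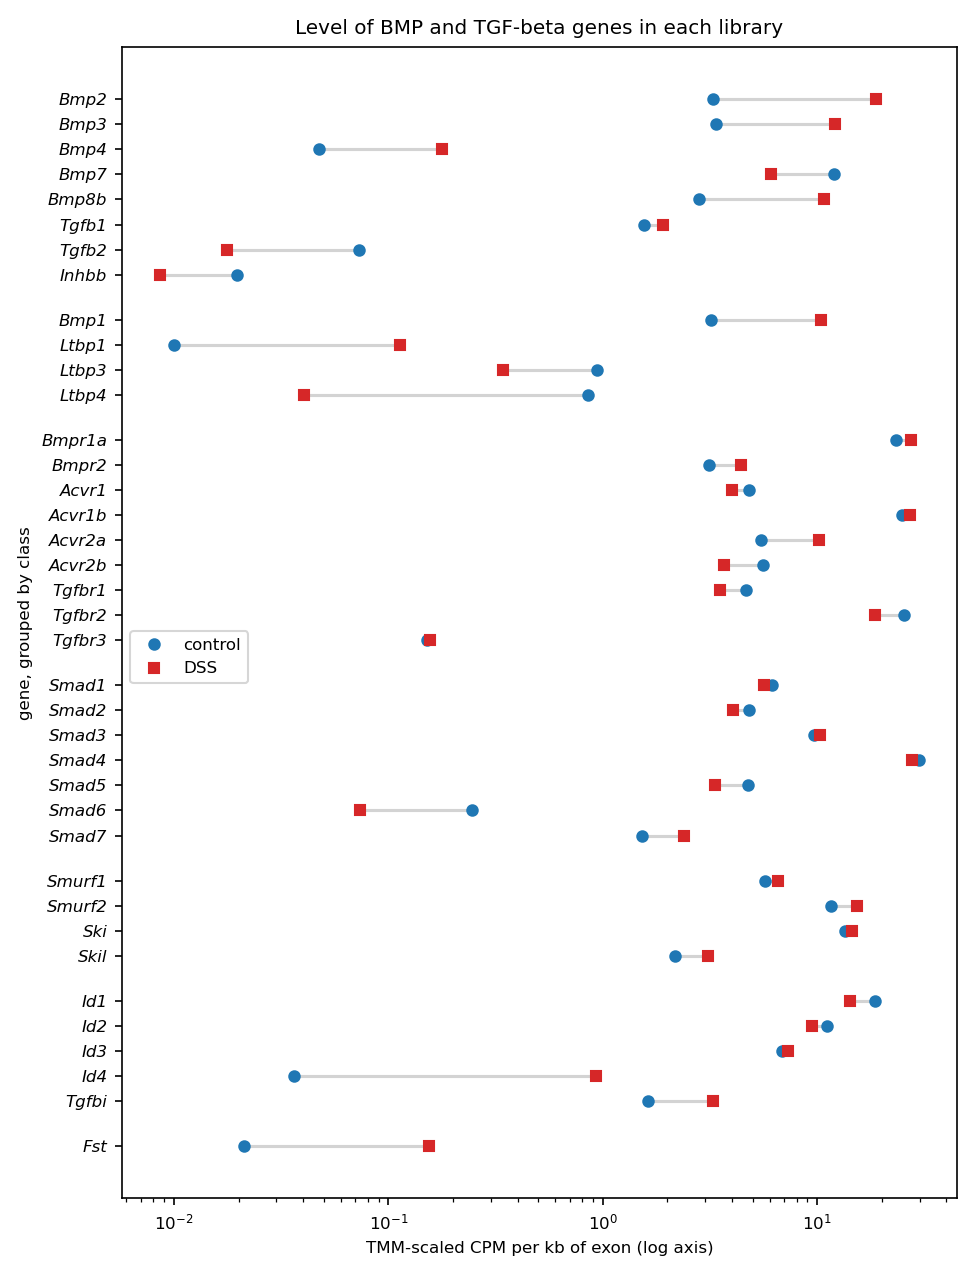
Level of each member (y axis, grouped by class) as TMM-scaled CPM per kb of exon on a log axis, in the control (circles) and DSS (squares) library. Most receptors and signal-carrying SMADs lie close together, with Acvr2a the farthest apart among them at 5.46 and 10.1 CPM per kb, while Bmp2, Bmp3, Bmp8b, Ltbp1, Ltbp4, Smad6, Id4 and Fst are among those set apart.

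The ID genes, whose promoter windows for Id2, Id3 and Id4 are given above, encode proteins that bind and block basic helix-loop-helix transcription factors. With TMM factors, the 3 abundant ones stayed within a log2 ratio of 0.5 of 0. With total counts Id1 was at -0.64, Id2 at -0.48 and Id3 at -0.17. Id1 had 1546 and 905 counts and a log2 ratio of -0.38, from -0.50 to -0.26. Id2 had 1933 and 1263 counts and -0.23, from -0.33 to -0.12. Id3 had 626 and 508 counts, and its interval, from -0.085 to 0.26, held 0. Id4 stood apart, with 10 control and 196 DSS counts. Its log2 ratio was 4.68, and its interval ran from 3.77 to 5.76. Of all genes with at least 10 counts in either library, 99.5% had a lower ratio. In level per kb it was still the lowest ID gene in the DSS library, at 0.931 CPM per kb against 14.3 for Id1, 9.48 for Id2 and 7.27 for Id3, and its share of the 4 went from 0.0992% to 2.92%. Exons of Id4 overlap noncoding genes of the other strand, over 4.44% of their length at most. The 4 genes together were at -0.13, from -0.20 to -0.06. Tgfbi, which encodes an extracellular matrix protein named for its induction by TGF-β, had 314 and 482 counts and a log2 ratio of 1.01, from 0.80 to 1.22. With total counts it was at 0.75, short of the line.

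Further genes of the pathway were taken from lists of ligands, receptors and coreceptors, antagonists, latency proteins, signal regulators and targets. Of 102 such genes, 67 had a row and 61 met the minimum of 10 counts. At least 1 was reached by 14 and at most -1 by 6, or 23.0% and 9.84%, beside the 19.3% and 20.2% of all genes, and their median was 0.10. Of the genes past a line, Snai1 and Amhr2 met the minimum through the DSS library alone and Rgma through the control alone. Where both libraries had to meet it, 12 and 5 were past the lines, against 16.8% and 18.9% of all genes. With total counts, 14 and 11 of the 61 genes were past the lines, where 15.4% and 26.2% of all genes then lay. As among the members, the signal regulators held few genes past a line, 2 of 22, with a median of -0.12. Their median absolute log2 ratio was 0.39. It was 1.34 in the further ligands, 0.68 in the latency and activation proteins and 0.22 in the further antagonists. The further receptors and coreceptors had the largest, 2.32, but Amhr2 and Rgma among them had to differ to be counted. These medians take genes with the minimum in either library, whereas the members' split was given for both. Rgmb, Acvr1c and Acvrl1 met the minimum in both libraries and were past a line. The members' split by role was thus not seen in this list.

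Among the 6 further receptors and coreceptors counted, 2 were past the upper line and 3 past the lower, where 19.3% and 20.2% of all genes lie. Amhr2, with 4 and 15 counts, and Rgma, with 41 and 5, are among these and met the minimum in 1 library only. Rgmb encodes a BMP coreceptor of the repulsive guidance molecule family and had 6546 control and 1058 DSS counts, a log2 ratio of -2.24, from -2.34 to -2.15. Acvr1c, a type I receptor for activins and Nodal also called ALK7, had 699 and 105 counts and a log2 ratio of -2.35, from -2.66 to -2.05. Acvrl1, the type I receptor ALK1 known from endothelial cells, had 19 and 105 counts and a log2 ratio of 2.85, from 2.14 to 3.64. The endothelial markers Pecam1 and Tek were also higher, with 24 and 152 counts together, and the part of such cells in the Acvrl1 counts was not tested. Neo1, the receptor of RGM proteins, had 9353 and 7865 counts and was at 0.14.

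Of the 7 further ligands counted, 4 were at 1 or more, where 19.3% of all genes lie. Of these 4, Bmp8a and Gdf9 had at least 50 counts in a library, and Gdf9 had 119 and 260 counts and a log2 ratio of 1.52. Gdf15, a stress-induced ligand, had 3603 and 1510 counts and was at -0.87. Nbl1, a secreted BMP antagonist of the DAN family, had 263 control and 1099 DSS counts, a log2 ratio of 2.45, from 2.26 to 2.65. It was the only one of 5 further antagonists past a line. Of the latency and activation proteins, Nrros, which anchors latent TGF-β on cells, at 1.96 and Pcolce, an enhancer of procollagen cleavage by BMP1, at 1.69 were higher, and Itgb6, a subunit of an integrin that activates latent TGF-β, was at -1.11 with 1397 and 493 counts.

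Tgif2, a repressor that binds SMADs of the TGF-β arm, had the lowest ratio of all the further genes. It had 3779 control and 147 DSS counts, a log2 ratio of -4.30, from -4.54 to -4.06, while its paralog Tgif1 was at -0.55. Ppp1r15a, a phosphatase subunit that acts on the type I receptor and in the stress response, was at 1.47. Of 16 TGF-β targets outside the members, 4 were past the upper line and 2 past the lower, or 25% and 12.5% against 19.3% and 20.2% of all genes, with a median of -0.13. Snai1, with 4 and 32 counts, is among these 4 and met the minimum through the DSS library alone. Cdkn2b, an inhibitor of cyclin-dependent kinases, had 768 and 3405 counts and a log2 ratio of 2.54. Col4a1, a basement membrane collagen, had 18 and 304 counts and was at 4.47. Klf10, an early TGF-β target, was at -1.02, Ccn1 at -0.78 and Pmepa1 at -0.78, so that genes of this list lay on both sides of 0. Many of these targets respond to other signals as well. Of the BMP targets outside the members, Bambi, Msx1 and Hey1 were counted, and each was between -1 and 1.

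**Figure D4:**
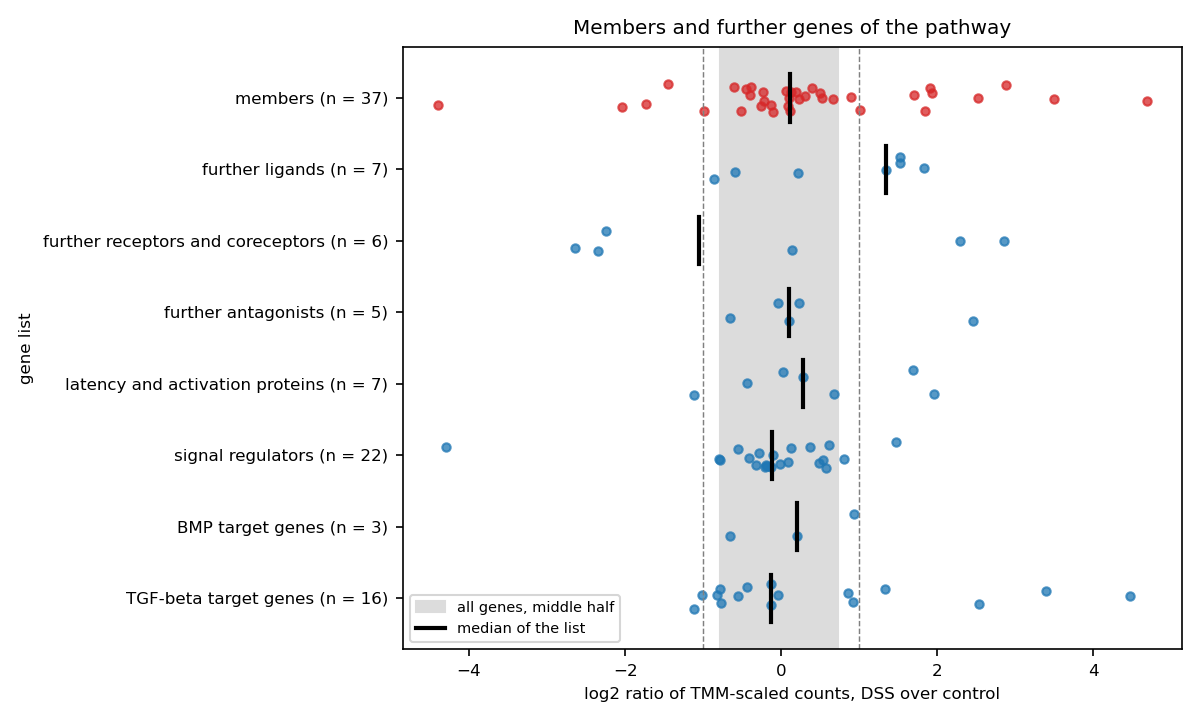
Log2 ratio (x axis, DSS over control) of the 37 counted members and of the counted genes of 7 further lists (y axis, 1 point a gene, spread vertically for clarity), with list medians as black bars, the interquartile range of all genes shaded from -0.79 to 0.73 and dashed lines at 1 and -1. Signal regulators lie between the lines except for Tgif2 and Ppp1r15a, while further receptors and coreceptors split to both sides.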

How the data were processed

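Expression was measured by stranded mRNA-seq in 1 control and 1 DSS-treated mIO culture. The deposited values are raw counts of reads per gene, not normalized by the authors, and the sample files named for FPKM hold the same counts for all 19294 genes. The submitters' processing notes name HISAT2 and StringTie, and the genome build and counting settings are not given in the sources used here. The smallest count in the table is 1, so a gene with 0 reads in 1 library or in both has no row, and a missing row does not show that a gene was unread in both.

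Counts were scaled with TMM factors of edgeR 4.0.16 (1.09 for the control, 0.915 for DSS) in R 4.3.3. A minimum of 10 counts in either library applied to counts of genes and to medians. A log2 ratio of 1 or -1 was the line for size, and 2 or -2 an alternative. With 1 library per condition no test was run. Intervals between genes of one library are conditional odds ratio intervals. Exon lengths are unions of protein-coding transcripts of GENCODE vM21, matched by symbol for all 38 members. Members and lists were chosen with earlier results of these data known. All members are named, and of the further lists the genes with at least 50 counts in a library and past a line, with Gdf15, Neo1, Tgif1, Ccn1, Pmepa1, Bambi, Msx1 and Hey1 added after their values were seen. The computation was tested on simulated counts. Other settings tried were size factors of DESeq2 1.42.0, upper quartile factors, total counts, centring, thinning, a prior count of 2 and other minimums. Python 3.11.15, numpy 2.4.6, scipy 1.17.1, pandas 2.3.3 and matplotlib 3.10.9 were used.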

Additional observations from a re-analysis of the deposited data

How the results depend on the processing

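Of the 38 members, 28 kept their sign and their side of the lines of 1 and -1 under the 6 alternatives of scaling, prior count and thinning. Acvr1b, Bmpr1a, Id3, Ski, Smad3, Smurf1 and Tgfbr3 changed sign with total counts alone. Bmp7 and Tgfbi changed side with total counts and Inhbb with a prior count of 2, at -0.76. Total counts shifted every gene by -0.26 on the log2 scale and upper quartile factors by 0.09. With total counts the medians were -0.15 for all counted members, -0.39 for SMAD proteins, 0.039 for SMAD regulators, -0.13 for activation and latency proteins and -0.17 for targets. The sums were then 0.95 for ligands, 0.66 for activation and latency proteins and -0.24 for receptors. They were -0.37 for SMAD proteins, 0.0050 for SMAD regulators and -0.27 for targets. Of the further genes, 11 were at -1 or less, where 26.2% of all genes then lay. With upper quartile factors the medians were 1.94 for ligands, -0.047 for SMAD proteins and 0.39 for SMAD regulators, and the sums 1.30 for ligands, 0.10 for receptors, -0.019 for SMAD proteins, 0.35 for SMAD regulators and 0.078 for targets. Centred on the median of all genes, the sums were 1.27 for ligands, 0.071 for receptors, -0.052 for SMAD proteins and 0.32 for SMAD regulators. A stricter minimum of 10 counts in both libraries or 50 in one removed Ltbp1 and set the median of the activation and latency proteins at -1.45. A line of 2 and -2, added after the data were seen, left 4 members above and 2 below. Over the other settings the members were 6 to 9 at 1 or more and 3 to 5 at -1 or less. No paired analysis was possible because each condition is 1 library, and no replicate could be left out for the same reason.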
